A study of Mus musculus with 44 samples.

Results

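Predicted genes whose symbol is Gm and a number hold RNAs that mouse annotation lists without a functional name, and the 200 of them with the most counts in wild-type (WT) skeletal cells are described here. They were chosen from 19700 Gm genes among 46831 usable entries of the count table, by the mean over the 16 WT input libraries of CPM, a gene's count divided by the library total and multiplied by 1000000. Of the Gm genes, 11732 had any count in those libraries. The WT input level therefore chose the members and is given as a description only. The order is one of counts and not of counts per length. The 198th to 200th members, Gm6755, Gm15867 and Gm37219, had 3.23, 3.21 and 3.09 CPM, and the next genes outside, Gm12940, Gm15590 and Gm7535, had 3.09, 3.09 and 3.08 CPM.

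The libraries came from skeletal cells sorted from the long bones of C57Bl6 mice (C57BL/6J background in the study's methods) at 3 days of age, without selection for sex. The sort gates removed blood and endothelial cells and separated 8 populations by surface markers. These were the stem and progenitor populations SSC (skeletal stem cells), pre-BCSP (pBCSP in the following) and BCSP (bone, cartilage and stromal progenitors) and the downstream populations PCP, THY, BLSP, 6C3 and HEC. SLIM-seq compares RNA pulled down with an antibody to N6-methyladenosine (m6A, library IP) with the RNA before the pull-down (library input). Each WT population had 2 IP and 2 input libraries, and SSC, pBCSP and BCSP each had 2 of both from libraries labelled Mettl3cko, which makes 44 libraries in 22 groups. In the study, WT stands for Mettl3 fl/fl controls and Mettl3cko for Mettl3 fl/fl mice that also carry Col2a1-Cre, so both share the floxed allele, and the Cre follows the promoter of a cartilage collagen gene. All 44 libraries carry the entry wild type as their genotype, and only the titles separate Mettl3cko from WT. Tissue came from several independent litters, and the study calls its replicates biologically independent experiments. Which animals or litters each library drew on is not given, so p-values measure the spread between these samples.

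Mettl3, the enzyme that writes most m6A on mRNA, was not lower in the libraries labelled Mettl3cko. Its input level was between 14.7 and 24.01 CPM (18.6 ± 3.59, SD, n = 6) there and between 11.9 and 19.2 CPM (15.7 ± 2.59, SD, n = 6) in WT SSC, pBCSP and BCSP (log2 fold change 0.25 ± 0.17 SE, adjusted p = 0.449). The value is a count over the whole gene, in which reads outside the deleted part are included. The study itself reports the loss of Mettl3 by qRT-PCR and western blot. It also reports less m6A by dot blot in stem and progenitor cells, and lower m6A levels in its m6A profiles of SSC, pBCSP and BCSP. Every direction given below for Mettl3cko rests on the titles of these libraries.

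The libraries held 16506779 to 44219035 counts, of which the members took 0.186 to 0.307% in WT input, 0.274 to 0.409% in WT IP, 0.242 to 0.407% in Mettl3cko input and 0.277 to 0.344% in Mettl3cko IP. At least 198 members had a count in every WT input library and at least 190 in every WT IP library, against 145 to 169 in the Mettl3cko IP libraries. The last group stood apart before any result: its replicates correlated at 0.769 to 0.832 over expressed genes, against at least 0.925 in every other group, and over the members at 0.602 to 0.701. Mitochondrial genes took 1.56 to 2.92% of counts in WT IP libraries of SSC, pBCSP and BCSP and 4.52 to 9.09% in those of the downstream populations. Cartilage and bone markers took 7.79 to 18.7% of WT input counts. The summed level of 8 blood cell markers was 5.69 to 15.9 CPM in WT input of SSC, pBCSP and BCSP (2 of the 8 at 0 in all of these libraries), 12.9 to 129.9 CPM downstream, and 14.2 to 35.3 CPM in Mettl3cko input. That of 4 endothelial markers was 1.04 to 17.7, 1.06 to 86.2 and 0.905 to 17.5 CPM, and that of 4 muscle markers 4.33 to 9.34, 3.56 to 11.9 and 9.40 to 17.4 CPM. Their part in the results below was not tested.

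A Gm symbol says nothing of what an RNA does. The group mixes processed pseudogenes, which arise when an mRNA is copied back into DNA and inserted elsewhere in the genome, with long noncoding RNAs, antisense RNAs, RNAs from within introns of coding genes, and stretches of transcription that annotation has listed but not yet characterised (TEC). m6A is written on nascent RNA, most often at an adenosine within a short motif of which GGACT is the best known form, and is read by proteins that affect splicing, decay and translation. Reads of a near copy may come from its source gene, and reads from an intron may come from unspliced RNA of the host gene. The libraries do not keep the strand of the RNA, so a member and a gene on the opposite strand cannot be told apart where they overlap.

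Of the 200 members, 188 matched GENCODE vM21 (build GRCm38) by symbol, 10 matched a RefSeq gene (GRCm38.p6) through an older symbol, and Gm42724 and Gm3934 are named only. A near copy was a member whose transcript aligned to that of another gene with at least 90% identity over at least 50% of its length. On that basis 10 members were copies of ribosomal protein genes, 3 of mitochondrial genes, 43 of other coding genes and 2 of noncoding genes only. The others were 47 TEC, 26 antisense RNAs, 21 lincRNAs, 16 annotated as coding, 9 sense intronic RNAs and 11 of other types, and 12 had no match by symbol. By position, 56 lay within or over a coding gene on its strand, 53 over a coding gene on the opposite strand, 27 within 5 kb of one and 52 farther away.

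The sequences below are printed because the values of these members turn on how closely they resemble another gene. The first set is 120 bases of the ubiquitin reading frame from Ubb (chr11:62552830-62552949, plus strand), which encodes polyubiquitin, and of its copies Gm1821 (chr14:46084582-46084701, plus strand) and Gm8797 (chr3:5750904-5751023, plus strand), with the 3 and 4 bases that differ from Ubb in capitals. The transcripts were 97.7% and 98.2% identical to that of Ubb where they aligned.
Ubb: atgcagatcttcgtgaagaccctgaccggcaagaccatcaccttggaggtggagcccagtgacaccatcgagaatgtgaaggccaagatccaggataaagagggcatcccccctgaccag
Gm1821: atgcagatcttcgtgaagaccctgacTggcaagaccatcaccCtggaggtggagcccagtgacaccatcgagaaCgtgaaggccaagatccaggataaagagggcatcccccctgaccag
Gm8797: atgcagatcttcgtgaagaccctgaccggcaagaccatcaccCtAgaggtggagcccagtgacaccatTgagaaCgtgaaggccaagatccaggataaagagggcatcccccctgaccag

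The first 60 bases of mt-Atp6 (chrM:7927-7986, plus strand), a mitochondrial gene for a subunit of ATP synthase, and of its nuclear copy Gm10925 (chr1:24614592-24614651, minus strand) are shown because they do not differ, so no base is in capitals, and over the whole of the copy every base was identical.
mt-Atp6: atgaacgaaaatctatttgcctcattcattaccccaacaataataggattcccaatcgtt
Gm10925: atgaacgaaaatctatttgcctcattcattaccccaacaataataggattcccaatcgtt

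A group of 3 members that resemble one another, Gm10800 (chr2:98666580-98666669, minus strand), Gm21738 (chr14:19415890-19415979, minus strand) and Gm10801 (chr2:98663961-98664050, plus strand), is shown over 90 bases, with the bases that differ from Gm10800 in capitals (9 and 11), because its level differed widely between replicates. The best match of Gm10800 and Gm10801 was Gm10721 (93.4% and 91.6% identity) and that of Gm21738 was Gm10719 (94.9%).
Gm10800: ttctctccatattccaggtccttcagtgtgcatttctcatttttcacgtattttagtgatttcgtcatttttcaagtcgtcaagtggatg
Gm21738: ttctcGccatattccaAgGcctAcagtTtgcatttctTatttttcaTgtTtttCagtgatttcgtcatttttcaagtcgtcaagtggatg
Gm10801: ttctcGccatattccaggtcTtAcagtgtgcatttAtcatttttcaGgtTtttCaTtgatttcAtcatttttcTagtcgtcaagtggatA

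For Gm44187, the member with the smallest p in the test of IP against input, 150 bases (chr6:88041701-88041850, minus strand) end in a GGACT, in capitals.
Gm44187: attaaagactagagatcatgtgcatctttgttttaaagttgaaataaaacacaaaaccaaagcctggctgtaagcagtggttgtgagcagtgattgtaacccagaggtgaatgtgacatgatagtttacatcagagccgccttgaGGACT

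Of the 2 members annotated as miRNA genes, Gm25535 holds in its transcript the mature sequence that RefSeq (GRCm38.p6) gives for mmu-miR-3470b at chr16:44013885-44013905, on another chromosome, and it is printed with its seed, bases 2 to 8, in capitals. Gm23935 is shown whole (chr16:11144125-11144181, plus strand), with no base in capitals, because its level rests on 57 bases, the shortest transcript among the members.
mmu-miR-3470b: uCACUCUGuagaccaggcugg
Gm23935: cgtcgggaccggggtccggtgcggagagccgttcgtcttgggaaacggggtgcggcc

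Levels in WT input fell steeply along the members. Gm1821 had a mean of 279.8 CPM, the median member 5.81 CPM and the last 3.09 CPM, and the first 3 members held 25.9% of the members' summed level. Only 7 members were over 50 CPM and 53 over 10 CPM. After Gm1821 came the lincRNA Gm28875 (199.1 CPM), which lies within 5 kb of Syne3 on its strand, and Gm16286 (159.8 CPM), annotated as coding and overlapping Txnl4a, a spliceosome component, on its strand. The next were Gm42724 (70.6 CPM), Gm42899 (59.6 CPM, within Lhfp), Gm23935 (55.5 CPM), Gm37899 (51.7 CPM), Gm8797 (43.99 CPM), Gm43519 (41.6 CPM, within Sema3e), Gm22 (41.3 CPM, the older symbol of Zfp469), Gm10800 (34.1 CPM) and Gm17455 (33.0 CPM, over Cdh23 on the opposite strand). Copies, long noncoding RNAs and TEC were thus all among the first 12. Per kilobase of transcript the order differs, as these transcripts run from 57 to 8717 bases.

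**Figure D1:**
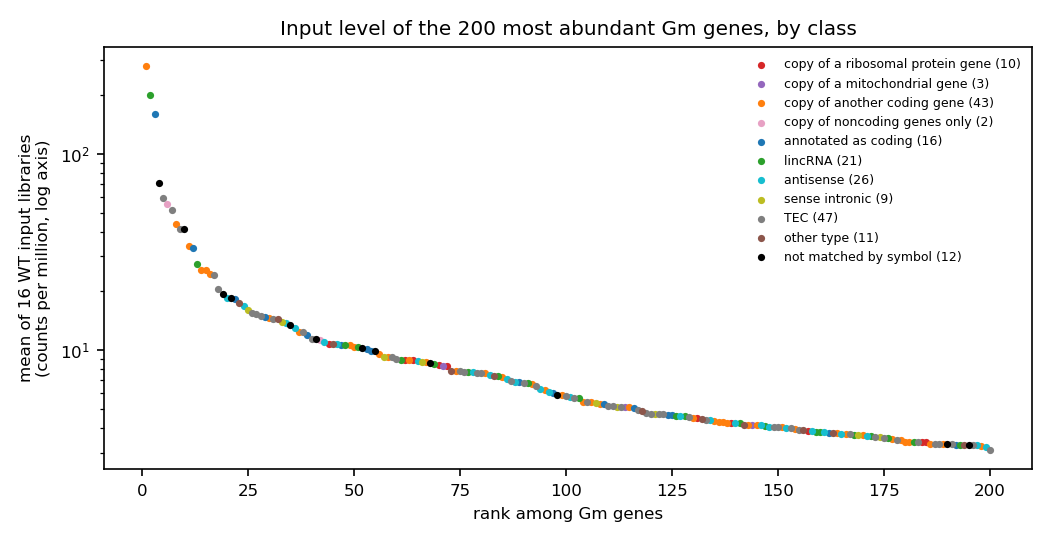
Mean level over the 16 WT input libraries in CPM (vertical axis, log scale) of the 200 members by rank (horizontal axis), each point a member coloured by its class, with the number of members of each class in the legend. The level drops from 279.8 CPM, with 53 members over 10 CPM, and then declines slowly to 3.09 CPM.

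The population with the highest mean level was pBCSP for 41 members, BCSP for 32, SSC for 22, BLSP for 41, THY for 20, 6C3 for 19, PCP for 16 and HEC for 9. The median ratio of the highest to the lowest population mean was 3.70, and in 28 members it passed 10 or the lowest mean was 0. In the test across the 8 populations (edgeR quasi-likelihood F test, adjusted p under 0.05 over all genes), 103 of the 200 members differed, against a background of 40.1% of all genes tested. Between stem and progenitor populations and the downstream ones, 81 members were higher in SSC, pBCSP and BCSP (background 23.1% of genes) and 57 were lower (background 28.3%). The median log2 fold change was 0.31 over the members and -0.11 over all genes. Nothing is read from these counts about the members as a group, because the choice of members used the mean of the same 16 libraries. A member with a low mean on one side could enter only through the other. The downstream mean was under the level of the last member in 28 members, of which 25 were called higher in stem and progenitor cells, and the stem and progenitor mean was under it in 36, of which 30 were called lower. For such members the values are given below as a description, with no test. The p-values given below for other members come from the same 16 libraries and are also a description, gene by gene. Of the other 136 members, 56 were called higher and 27 lower. In these bulk libraries, fewer cells of a type and less RNA per cell cannot be told apart.

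Gm1821, the most abundant member, and Gm8797, both copies of Ubb, were higher in stem and progenitor cells. Gm1821 had 461 and 546 CPM in SSC, 430 and 469 in pBCSP, 465 and 652 in BCSP, 187 and 156 in PCP, 233 and 142 in THY, 147 and 154 in BLSP, 121 and 102 in 6C3 and 97.96 and 114 in HEC. All 6 stem and progenitor libraries were above all 10 downstream ones (log2 fold change 1.91 ± 0.12 SE, adjusted p = 2.98e-09). Gm8797 ran from 73.8 to 112 CPM (median 85.9) in SSC, pBCSP and BCSP and from 11.2 to 27.0 CPM (median 18.1) downstream, again without overlap (2.40 ± 0.13 SE, adjusted p = 6.59e-10). Ubb itself changed by 0.82 ± 0.11 (SE, adjusted p = 1.11e-05). The counts of Gm1821 were 8.16 to 9.08% of those of Ubb in the stem and progenitor libraries and 2.94 to 7.14% in the downstream ones, so the copy's counts did not keep a fixed proportion to those of its source. For Gm8797 the proportions were 1.34 to 1.59% and 0.406 to 0.602%.

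Other members had low levels downstream. Gm37352, a TEC with no coding gene within 5 kb (chr8:84200869-84203049, GRCm38), had 33.0 and 68.2 CPM in SSC, 37.9 and 63.3 in pBCSP, with 50.3 and 81.2 in BCSP, and between 3.17 and 7.99 CPM (median 4.80) in the 10 downstream libraries (3.49 ± 0.21 SE, adjusted p = 1.97e-09). The lincRNA Gm43154 (chr6:31605190-31798053) had 4.87 to 17.8 CPM (median 8.97) in the stem and progenitor libraries and 0 to 0.569 CPM (median 0.133) downstream. Gm5678, a copy of the carbonyl reductase gene Cbr1 with 90.6% identity, had 10.4 to 19.8 CPM (median 15.5) and 0 to 6.19 CPM (median 0.459). The groups did not overlap for any of these genes, and Gm43154 and Gm5678 are members only through their stem and progenitor level. Within the downstream side Gm5678 was highest in HEC (3.99 and 6.19 CPM) and 6C3 (1.63 and 3.08 CPM). Cbr1 changed by 1.29 ± 0.11 (SE, adjusted p = 7.14e-08). Gm973, annotated as coding, had 15.6 to 45.3 CPM (median 32.2) against 2.82 to 9.69 CPM (median 5.81), with pBCSP and BCSP above SSC (2.43 ± 0.14 SE, adjusted p = 1.12e-09).

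The members named as lower in stem and progenitor cells were of several classes. Gm14636, a processed transcript on chromosome X, had 0.517 to 1.75 CPM (median 1.10) in SSC, pBCSP and BCSP and 11.5 to 42.4 CPM (median 26.8) downstream, and is a member only through its downstream level. Gm21451, a copy of the lysyl oxidase gene Loxl2, had 6.78 to 13.5 CPM (median 9.64) and 19.0 to 48.1 CPM (median 34.7), with the highest levels in PCP and THY (-1.69 ± 0.15 SE, adjusted p = 1.14e-07). Loxl2 changed by -0.52 ± 0.11 (SE, adjusted p = 0.000879), and the counts of the copy were 7.76 to 19.96% of those of Loxl2 on the stem and progenitor side and 26.6 to 32.8% on the other. Gm16144 overlaps Anxa2, an annexin gene, on the opposite strand. It had 3.49 to 6.46 CPM (median 4.34) and 7.19 to 39.2 CPM (median 22.1), the lowest downstream value being one of the HEC libraries (-2.20 ± 0.22 SE, adjusted p = 4.77e-07). For Gm21685 (the older symbol of Entpd4b) the change was -1.66 ± 0.16 (SE, adjusted p = 3.23e-07), without overlap of the groups. The lincRNA Gm14005 had 1.83 to 3.53 CPM (median 2.60) and 6.54 to 15.2 CPM (median 11.6), and Gm9844, a copy of the thymosin gene Tmsb10, had 1.97 to 3.596 CPM (median 2.13) and 4.77 to 15.4 CPM (median 11.1). Both entered through their downstream level. Tmsb10 changed by -1.54 ± 0.15 (SE, adjusted p = 5.07e-07).

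**Figure D2:**
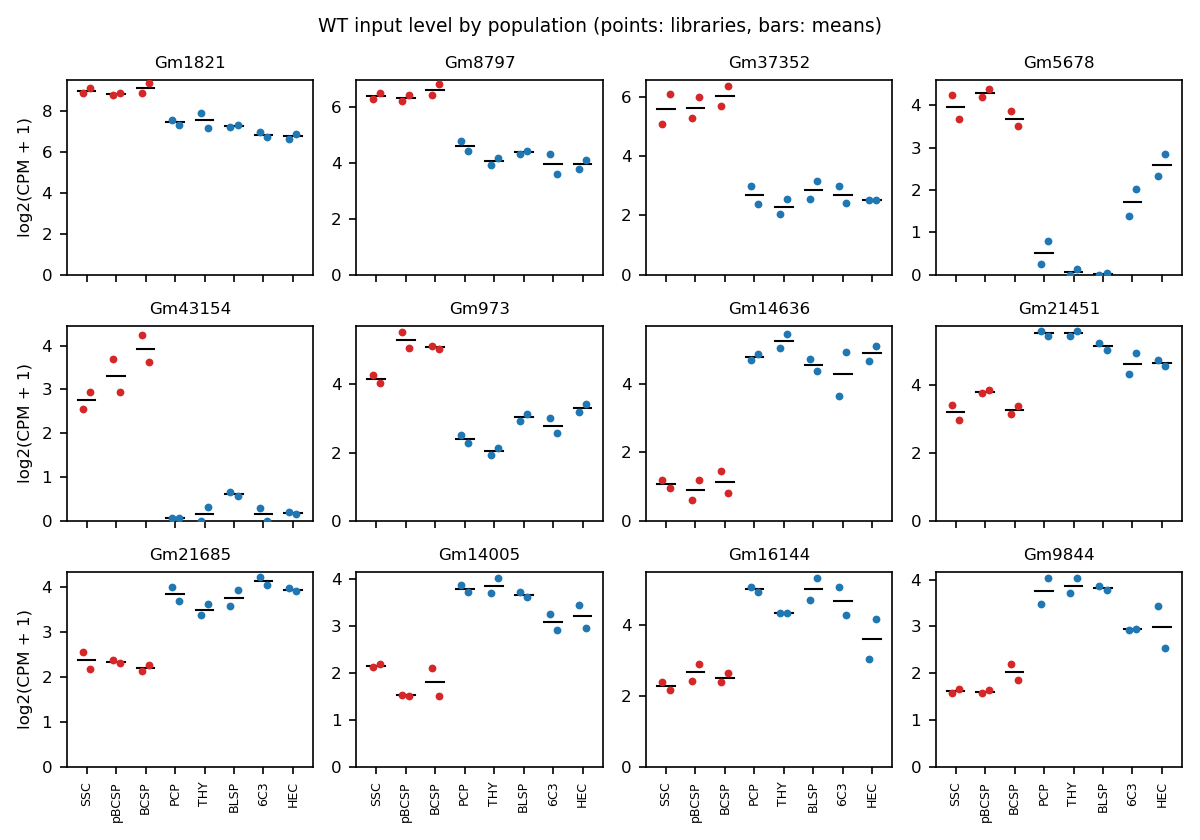
Level in WT input as log2(CPM + 1) (vertical axes) in the 8 populations (horizontal axes) for 12 members, the 6 with the smallest p in each direction of the comparison of SSC, pBCSP and BCSP (red) with downstream populations (blue), each point a library and each bar the mean of 2. In every panel the red points lie on one side of all blue points, and Gm5678 and Gm43154 have blue points at 0.

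The calls by class are listed as a description only, because the same WT input libraries chose the members. Members that entered only through the side where they are high are among them. Over all genes, 23.1% were higher and 28.3% lower. Of the 10 copies of ribosomal protein genes, 9 were higher in stem and progenitor cells and none lower (median 0.91), beside 78 of 83 ribosomal protein genes themselves. TEC had 13 higher and 18 lower of 47, copies of other coding genes 18 and 16 of 43, antisense RNAs 6 and 7 of 26, lincRNAs 10 and 5 of 21, sense intronic RNAs 5 and 1 of 9, and members annotated as coding 9 and 4 of 16. Library size alone in place of TMM shifts each log2 fold change of this comparison by -0.09, which leaves the median of the copies of ribosomal protein genes above 0.

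The group of Gm10800 showed that a mean over 2 libraries can hide their spread. Gm10800 had 0.246 to 2.50 CPM in the 6 stem and progenitor libraries, but 3.64 and 66.6 CPM in PCP, 8.81 and 117 in THY, 237 and 28.4 in BLSP, 6.66 and 34.5 in 6C3 and 10.7 and 25.7 in HEC. Replicates of one downstream population thus lay as far apart as different populations did. Across all 44 libraries, log2(CPM + 1) of Gm10800 correlated with that of Gm21738 at 0.982 and of Gm10801 at 0.974, over genes that share sequence and possibly reads.

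The comparison of IP with input asks which RNAs the m6A antibody enriched. Averaged over the 8 WT populations, 83 members were higher in IP than in input (background 17.2% of genes) and 59 lower (background 25.2%), out of 200 tested. Members had a median log2 ratio of 0.31 and all genes one of 0.00398. The input level entered both the choice of members and this ratio: when the 200 Gm genes were chosen on the mean level in WT IP libraries instead, 144 were the same and 135 were higher and 23 lower. The split between higher and lower therefore depends on how members are chosen. Scaling by the median of ratios instead of TMM would add 0.13 to each log2 ratio.

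The TEC Gm44187, within Rab7, a gene of endosome traffic, and on its strand, had 5.10 to 15.0 CPM (median 8.27) in the 16 WT input libraries and 27.3 to 152 CPM (median 66.2) in the 16 WT IP libraries. Every IP library was above every input library (log2 ratio 2.87 ± 0.14 SE, adjusted p = 1.56e-16), while Rab7 itself was lower in IP (-0.90 ± 0.08 SE, adjusted p = 1.77e-10). None of the exon bases of Gm44187 overlap an exon of Rab7. Gm15564, an antisense RNA over Kpna1, had 4.08 to 21.9 CPM (median 9.98) in input and 16.7 to 191 CPM (median 79.7) in IP (2.76 ± 0.21 SE, adjusted p = 2.32e-12). Its ranges overlapped through one SSC IP library at 16.7 CPM, the replicate of one at 51.0 CPM. Gm38394, annotated as coding with 43.2% of its exon bases in exons of Zc3h11a, had 3.17 to 16.1 CPM (median 11.9) and 16.9 to 40.5 CPM (median 32.9), without overlap (1.65 ± 0.14 SE, adjusted p = 3.43e-11).

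The other members with the smallest p copy ribosomal protein genes. Gm14414 had 3.26 to 21.9 CPM (median 8.22) in input and 12.2 to 90.9 CPM (median 37.8) in IP (2.24 ± 0.17 SE, adjusted p = 4.15e-12). Gm14323 had the same ratio to 2 decimals (2.24 ± 0.17 SE, adjusted p = 5.68e-12), as its counts differed from those of Gm14414 by at most 4.50% in any of the 44 libraries, so these members cannot be counted as separate observations. Gm10269, a copy of Rpl35, had 2.40 to 16.4 CPM (median 8.18) in input and 19.3 to 31.9 CPM (median 22.8) in IP, without overlap (1.61 ± 0.13 SE, adjusted p = 1.92e-11), against 1.72 ± 0.09 (SE, adjusted p = 9.91e-16) for Rpl35.

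Among members lower in IP, Gm21685 had 3.38 to 17.6 CPM (median 11.04) in input and 0.457 to 1.999 CPM (median 1.09) in IP (-2.98 ± 0.21 SE, adjusted p = 6.75e-13). Gm13305, a copy of the interleukin-11 receptor gene Il11ra1 with 98.6% identity, had 11.01 to 50.6 CPM (median 22.7) and 0.914 to 7.51 CPM (median 4.58), and its ratio of -2.55 ± 0.20 (SE, adjusted p = 6.16e-12) stood beside -2.45 ± 0.10 (SE, adjusted p = 1.59e-17) for Il11ra1. Gm27000, which copies part of the imprinted lincRNA gene Meg3 with 99.9% identity, had 2.80 to 20.6 CPM (median 10.3) and 0.330 to 2.78 CPM (median 1.40), a ratio of -2.94 ± 0.25 (SE, adjusted p = 3.37e-11) against -0.66 ± 0.09 (SE, adjusted p = 5.49e-07) for Meg3. The lowest input library of Gm27000, one of 6C3, lay just above the highest IP library. Gm5763, a copy of Rgs3, a regulator of G-protein signalling, had a ratio of -2.30 ± 0.22 (SE, adjusted p = 3.12e-10) and Rgs3 one of -1.95 ± 0.08 (SE, adjusted p = 1.59e-17). Gm16144 had 3.49 to 39.2 CPM (median 17.7) in input and 0 to 2.196 CPM (median 0.661) in IP, with 3 of the 16 WT IP libraries at 0 (-4.25 ± 0.43 SE, adjusted p = 1.36e-09), whereas Anxa2 had -0.64 ± 0.08 (SE, adjusted p = 1.26e-07). The abundant Gm16286 was lower by a smaller factor (-1.13 ± 0.09 SE, adjusted p = 1.57e-11), with 100 to 255 CPM in input and 35.7 to 158 CPM in IP.

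By class, all 3 copies of mitochondrial genes were higher in IP (median 2.67), beside all 15 mitochondrial genes measured (median 2.77). Of the copies of ribosomal protein genes, 9 of 10 were higher and none lower (median 1.71), beside 81 of 84 ribosomal protein genes (median 1.67). Gm10925, with the same bases as mt-Atp6, had 0.2002 to 28.1 CPM (median 7.36) in input and 13.1 to 100 CPM (median 39.3) in IP. Antisense RNAs had 12 higher and 6 lower of 26 (median 0.57), sense intronic RNAs 6 and 1 of 9 (median 0.58), TEC 18 and 20 of 47 (median 0.10), and copies of other coding genes 11 and 16 of 43 (median -0.23). Both directions were thus found among TEC and among copies of coding genes other than these gene families. Neither of the medians of ribosomal and mitochondrial copies changes sign under the other scalings.

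**Figure D3:**
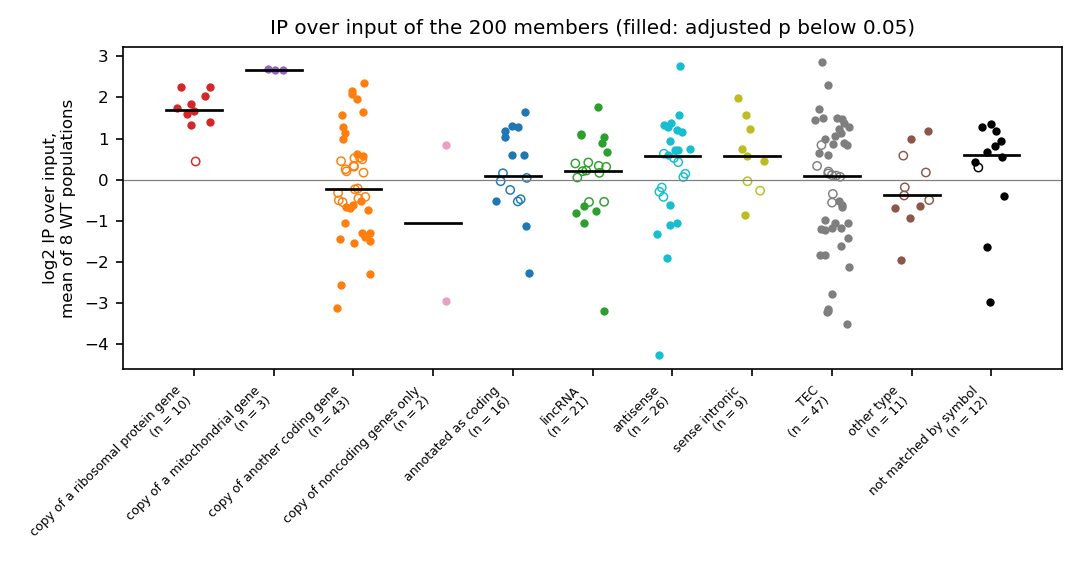
Log2 ratio of IP to input averaged over 8 WT populations (vertical axis) of the 200 members by class (horizontal axis), with filled points for an adjusted p under 0.05, open points for the rest and a bar at the class median. Copies of mitochondrial and ribosomal protein genes lie above 0 as groups, with medians of 2.67 and 1.71, while TEC and antisense RNAs spread from below -3 to above 2.

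The letters GGACT on the transcript strand occurred in the longest transcript of 128 of 188 members with a sequence (68.1%), against 63.0% of the longest transcripts of all genes. It was found in 43 of 75 members higher in IP (57.3%, 0.935 per kb) and in 41 of 56 members lower in IP (73.2%, 0.864 per kb), and all genes had 1.04 per kb. The median length was 1019 bases for members higher in IP and 1743 bases for members lower. Of the copies of ribosomal protein genes 3 of 10 held it (median length 552 bases), and of TEC 42 of 47 (median 2470 bases). Over all genes typed as processed pseudogenes 41.0% held it (median 526 bases), and over all TEC genes 72.4% (median 1955 bases). A match is a description of the letters and no match says nothing of m6A elsewhere in a transcript.

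The study's methods call a gene m6A-tagged in single populations by a fold and an unadjusted p. Here a member was counted as tagged at a log2 ratio of IP to input over 1 at an unadjusted p under 0.05 in a fit of 4 libraries. This marked 41 of 198 members tested in SSC (background 10.4% of genes), 43 of 199 in pBCSP (background 12%) and 26 of 198 in BCSP (background 6.67%). Downstream it marked 39 of 199 in PCP (background 10.6%), 52 of 196 in THY (background 12.4%), 53 of 199 in BLSP (background 12.4%), 55 of 199 in 6C3 (background 14.5%) and 60 of 198 in HEC (background 13.5%). In each population the share of members was above the background, but WT input chose the members and is also the denominator of this ratio. Members with nearly the same counts, such as Gm14414 and Gm14323, are each counted. Nothing is read from these shares about the members as a group. At an adjusted p under 0.05 the counts were 14 in SSC, 27 in pBCSP, 3 in BCSP and 32 in THY. Those of PCP, BLSP, 6C3 and HEC are not given. The share of all genes at that threshold is not given, so these counts do not compare members with genes. In SSC the count was 17 without the first input library, 21 without the second and 62 without the first IP library, and in BCSP 16 without the second input library and 43 without the second IP library. The share of mitochondrial counts differed between the IP libraries of both sides, as given above, and its part in these counts was not tested.

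Of the 194 members tested in all 8 populations, 105 (54.1%) were tagged in none, against 73.6% of genes, and 3 (1.55%) in all, against 2.78% of genes. The limits given for the single populations hold for these shares too. The 3 tagged in all were Gm44187, Gm38394 and Gm25535, named after their values were seen. A further 14 were tagged in 7 populations, among them Gm14414, Gm14323, Gm15564, Gm17455 and the 3 copies of mitochondrial genes. Gm44187 had a log2 ratio between 2.58 in pBCSP and 3.50 in THY.

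Only the TEC Gm42576, within Chic2, had a ratio of IP to input that differed among the 8 WT populations (adjusted p = 0.00479, F test of the interaction, edgeR). That is 1 of 200 members (0.5%), about the background of 0.485% of genes. In input it had 1.32 and 1.65 CPM in SSC, 1.84 and 3.90 in pBCSP, 1.04 and 0.714 in BCSP and 4.29 to 10.2 CPM downstream. In IP it had 0 and 0 CPM in SSC, 0.677 and 0.139 in pBCSP, 3.01 and 3.08 in BCSP and 5.49 to 9.80 CPM downstream. The ratio was thus lowest in SSC and pBCSP, where its counts were few. Gm42576 is a member only through its downstream input level. That input is also the denominator of the ratio, so the p is given as a description only. With the replicate number as a block within each population, which the pairing of IP and input libraries of one batch of cells calls for, 12 members differed, and leaving out 1 library gave 1 to 5. The share of all genes is not given for these counts.

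Near copies were set beside their best match, with which they share sequence and may share reads, so the likeness is described and not tested. The best match need not be the gene copied. Gm10800 had 34.1 CPM against 0.280 for Gm10721, Gm10130 5.87 against 0.0315 for Gm14124, and Gm37954 4.31 against 0.0275 for Vmn2r59. Gm10557, Gm21811, Gm21092 and Gm6483, matched to Cdh11, correlated with it at -0.0786 to -0.404. These pairs, all under 98% identity, are included in the next values. Over 55 pairs, the median correlation of the 8 population means in input was 0.83, and 42 pairs had IP ratios of the same sign. In the 30 pairs with at least 98% identity over at least 95% of the copy, the median correlation was 0.91, the IP ratios had the same sign in 29, they lay within 0.5 log2 units of each other in 23, and across pairs they correlated at 0.95. The exception in sign was Gm6055, a copy of the autophagy gene Map1lc3b, with 0.59 against -0.07. Changes between stem and progenitor and downstream cells correlated at 0.84 across these pairs. Among all pairs, the widest gap in IP ratio was that of Gm7805 (-3.11, against 1.26 for Mrpl20, at 91.0% identity).

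Members within a coding gene on its strand were less like their hosts. Over 54 such pairs the median correlation of population means was 0.64, the IP ratios had the same sign in 27, and they correlated at 0.12 across pairs with a median absolute gap of 1.13 log2 units. Over 51 pairs of a member and a gene on the opposite strand the values were 0.26, 28 and 0.14. Copies, hosts and opposite genes were not compared by a test.

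**Figure D4:**
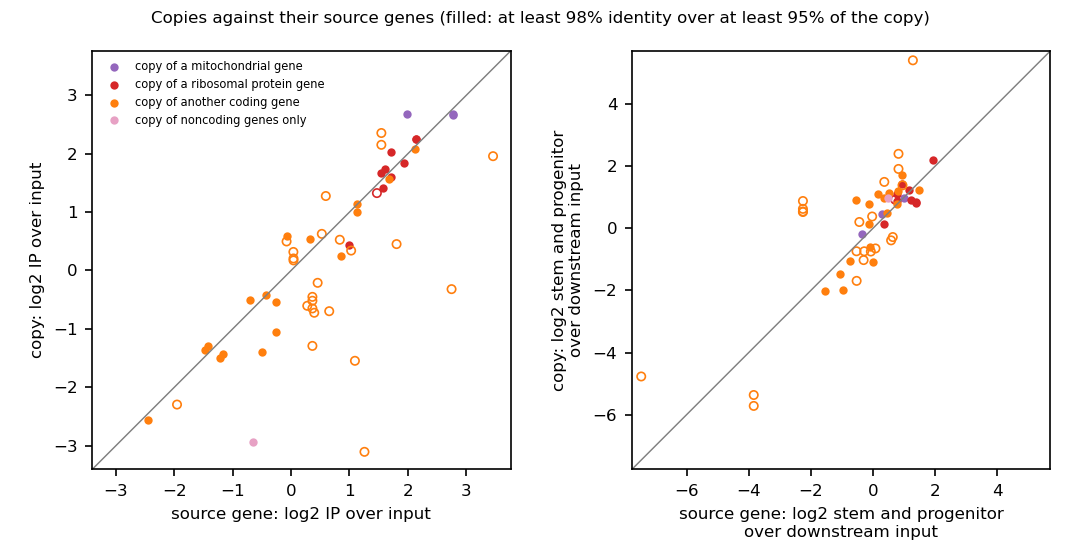
Each copy (vertical axes) is set against its source gene, the best match by sequence (horizontal axes). The left panel shows the log2 ratio of IP to input and the right one the log2 fold change of SSC, pBCSP and BCSP over downstream input. Points are coloured by class and filled where identity was at least 98% over at least 95% of the copy. The line of equal values is grey. Of the 30 filled points, 23 lie within 0.5 log2 units of the line on the left and 18 on the right, and Gm27000 is the filled point farthest from it on the left.

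In input of the libraries labelled Mettl3cko, 11 of 199 members tested were higher than in WT over SSC, pBCSP and BCSP (background 3.83% of genes) and 11 were lower (background 2.64%). The median log2 fold change was -0.10 over the members and -0.04 over all genes. Choosing the 200 Gm genes on Mettl3cko input instead, which kept 152 of them, gave 17 higher and 4 lower, so the balance of directions depends on the choice. Without the second SSC WT input library the counts were 6 higher and 6 lower, and without the second BCSP Mettl3cko input library 7 were lower.

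The member with the smallest p was Gm37352, which was also higher in stem and progenitor cells. Its level was 33.0 and 68.2 CPM in WT SSC, then 37.9 and 63.3 (pBCSP) and 50.3 and 81.2 (BCSP), and 11.9 and 11.8, 12.2 and 14.8, and 6.29 and 8.42 CPM in the Mettl3cko libraries of the same populations. No Mettl3cko library reached the lowest WT one (log2 fold change -2.37 ± 0.26 SE, adjusted p = 0.000522). In fits of single populations its log2 fold changes were -2.06 (SSC), -1.91 (pBCSP) and -3.17 (BCSP), with no adjusted p under 0.05. Gm38391, a TEC overlapping Plod2 on the opposite strand, had 7.05 to 9.31 CPM (median 7.64) in WT and 0.898 to 4.34 CPM (median 2.59) in Mettl3cko (-1.66 ± 0.33 SE, adjusted p = 0.00981). Gm19409, from an intron of Mapre3, had 2.81 to 9.65 CPM (median 5.51) and 0.877 to 3.796 CPM (median 1.63), with an overlap between a pBCSP WT and a BCSP Mettl3cko library (-1.66 ± 0.30 SE, adjusted p = 0.00570). Gm10762 (-1.35 ± 0.28 SE, adjusted p = 0.0122) and Gm14326 (-1.54 ± 0.34 SE, adjusted p = 0.0148) did not overlap. Gm15427, in the class of ribosomal protein gene copies, had 11.9 to 20.3 CPM (median 15.7) and 7.09 to 11.2 CPM (median 8.93), a change of -0.79 ± 0.17 (SE, adjusted p = 0.0157), without overlap of the groups.

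Gm25535, the member that holds the miR-3470b sequence, had 3.26 to 6.56 CPM (median 4.90) in WT and 7.39 to 16.8 CPM (median 12.2) in Mettl3cko, without overlap (1.26 ± 0.22 SE, adjusted p = 0.00513). The counts cover its whole row and are no measure of a mature miRNA. Gm13305 had 11.01 to 16.5 CPM (median 14.6) and 18.03 to 44.6 CPM (median 27.2), also without overlap (1.03 ± 0.20 SE, adjusted p = 0.00906), while Il11ra1 had 0.51 ± 0.15 (SE, adjusted p = 0.0501). Gm43519 had 21.0 to 40.9 CPM (median 35.5) and 45.4 to 86.8 CPM (median 51.6), without overlap (0.92 ± 0.20 SE, adjusted p = 0.0155), whereas its host Sema3e, a semaphorin gene, had -0.35 ± 0.32 (SE, adjusted p = 0.590). Gm13684, opposite the integrin gene Itgav, had 5.11 to 16.9 CPM (median 6.75) and 12.96 to 25.8 CPM (median 22.1), with an overlap through one SSC WT library (1.26 ± 0.28 SE, adjusted p = 0.0152), and Itgav had -0.36 ± 0.15 (SE, adjusted p = 0.173). For Gm10134 the change was 1.41 ± 0.31 (SE, adjusted p = 0.0164) and for Gm16144 1.17 ± 0.26 (SE, adjusted p = 0.0171), with overlapping ranges in both.

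**Figure D5:**
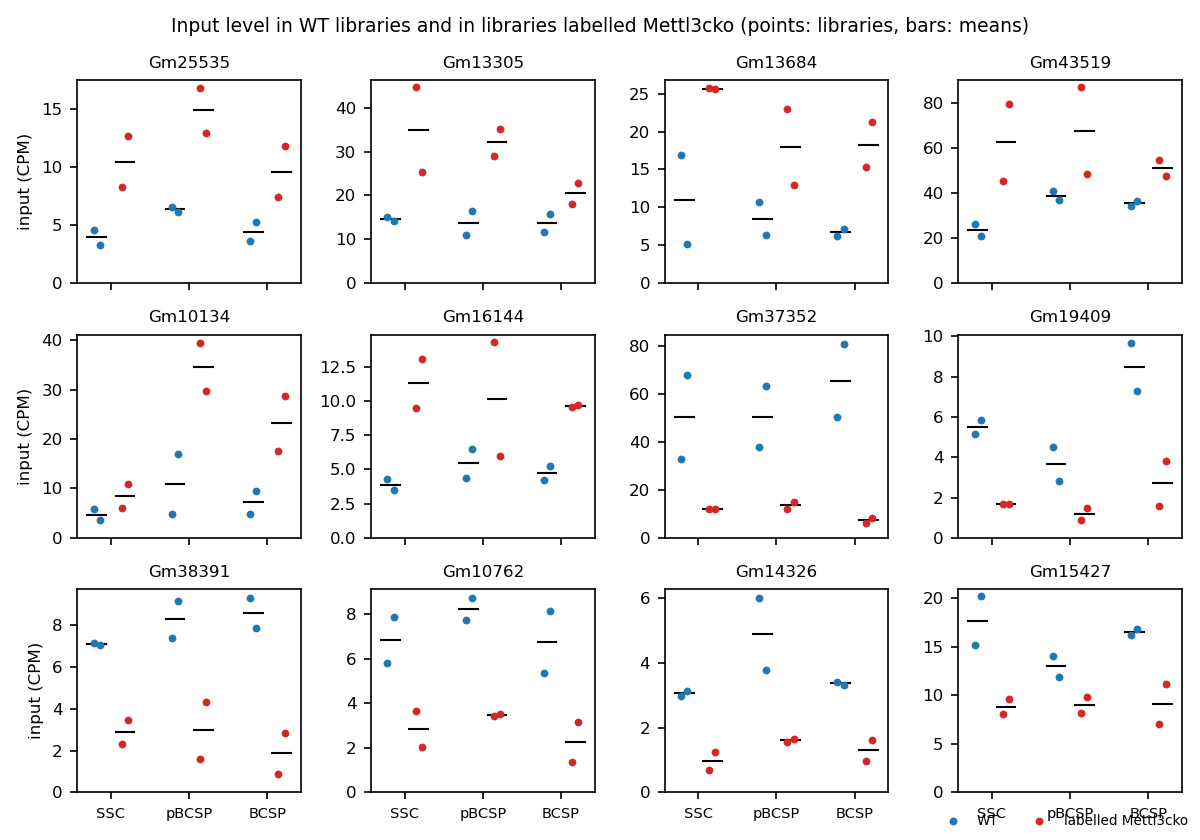
Input level in CPM (vertical axes, from 0) of 12 members in SSC, pBCSP and BCSP (horizontal axes) in WT libraries (blue) and libraries labelled Mettl3cko (red), each point a library and each bar the mean of 2. Read row by row, the first 6 panels show the members with the smallest p among those higher in Mettl3cko and the last 6 those lower, with Gm37352 at 33.0 to 81.2 CPM in WT and 6.29 to 14.8 CPM in Mettl3cko.

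Of the 11 members lower in Mettl3cko, 3 were among the 10 copies of ribosomal protein genes, beside 31 of 83 ribosomal protein genes that were lower. Of the 11 higher, 4 were TEC and 6 lay within a coding gene on its strand. In single populations, at a log2 fold change beyond 0.5 and an unadjusted p under 0.05, 25 of 197 members were higher in SSC (background 6.96% of genes) and 16 lower (background 7.07%). In pBCSP 8 of 199 were higher (background 3.88%) and 12 lower (background 4.48%), and in BCSP 11 of 198 were higher (background 7.22%) and 19 lower (background 5.72%). No member passed an adjusted p under 0.05 in a single population by edgeR, and neither did any other gene. At an unadjusted p alone, 41, 20 and 30 members passed in SSC, pBCSP and BCSP, with the share of all genes not given. With DESeq2, a log2 fold change beyond 0.5 and an unadjusted p under 0.05 gave 14 higher in pBCSP, also without that share. The counts by fold and unadjusted p rested on single libraries in each population. Leaving out 1 library gave 12 to 34 higher and 5 to 27 lower in SSC, where the second Mettl3cko library took the count lower from 16 to 27, and 3 to 31 higher and 2 to 30 lower in pBCSP, with both highest counts reached without the second Mettl3cko library. In BCSP the ranges were 6 to 11 and 12 to 19. A test of whether the change differed among the 3 populations called 0 members at an adjusted p under 0.05 and 7 of 199 at an unadjusted one (839 of 18655 genes).

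The change of the IP to input ratio in Mettl3cko asks whether the antibody enriched a member less. Of 199 members tested, 22 had a lower ratio (background 3.3% of genes) and 0 a higher one (background 0.643%), while DESeq2 called 48 and 6. At an unadjusted p under 0.05, 54 members (27.1%) had a lower ratio, against 13.4% of genes, and 6 (3.02%) a higher one, against 3.58% of genes. With the replicate number as a block, the pairing of IP and input libraries left 3 lower. For DESeq2 and for the block the share of all genes is not given. Leaving out the first SSC Mettl3cko IP library gave 41, leaving out the first pBCSP Mettl3cko IP library 40, and leaving out any of the 6 WT input libraries 11 to 13. Of the 22, 18 had 0 counts in at least 3 of the 6 Mettl3cko IP libraries and 3 (Gm37297, Gm5532 and Gm16144) in all 6, so their fitted folds are no measure of size and are not given. Gm16144 was near 0 in WT IP too, with 92 counts over the 6 libraries and 2 of them at 0. Over all genes, 12685 to 14415 had a count in a Mettl3cko IP library, against 16250 to 18714 in a WT IP library of the same populations, and the part of this lower detection in the 22 calls was not tested.

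Of the 22, Gm42724, Gm25535 and Gm15708 had counts in every library. Gm15708 had 2485 counts over the 6 WT IP libraries and 863 over the 6 of Mettl3cko, of which 2 held at most 3 counts each. Gm42724 had 72.5 and 82.4 CPM in WT IP of SSC, of pBCSP 70.1 and 119, and of BCSP 60.9 and 102. In Mettl3cko IP the same populations had 8.24 and 16.6, then 65.9 and 50.4, then 25.2 and 24.1 CPM. Its input was 90.2 to 129 CPM in WT and 102 to 224 CPM in Mettl3cko. The lowest Mettl3cko IP levels were in SSC, one pBCSP library reached into the WT range, and the input level was not lower (change of the log2 ratio -2.02 ± 0.35 SE, adjusted p = 0.00440). Gm25535 had 14.9 to 23.7 CPM in WT IP and 6.52 to 11.1 CPM in Mettl3cko IP, while its input moved the other way (-2.38 ± 0.54 SE, adjusted p = 0.0208). Gm37297, a TEC within Agap1, had 1.32 to 6.19 CPM in WT IP and no count in the 6 Mettl3cko IP libraries, although its input was 5.54 to 13.3 CPM in Mettl3cko. Gm13684 and Gm42788 had no more than 0.170 CPM in Mettl3cko IP of SSC and BCSP, but 7.52 and 8.08 CPM, and 8.29 and 15.1 CPM, in pBCSP, so the low IP level was not seen in all 3 populations. Gm10762 had 7.55 to 17.7 CPM in WT IP, and 0.0906 and 0 CPM in SSC, 0 and 0 in pBCSP, with 5.52 and 1.10 in BCSP of Mettl3cko.

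None of the 10 copies of ribosomal protein genes was among the 22. Of the ribosomal protein genes themselves, 63 of 84 had a higher ratio in Mettl3cko. The members with the smallest p toward a higher ratio did not pass the threshold. Gm23935 had 17.4 to 66.9 CPM in WT IP and 39.6 to 174 CPM in Mettl3cko IP (adjusted p = 0.0559), Gm10269 had 19.4 to 31.9 and 26.1 to 67.1 CPM (adjusted p = 0.0671), and Gm14414 had 12.2 to 90.9 and 67.8 to 136 CPM (adjusted p = 0.166). The ranges overlapped for all 3.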

How the data were processed

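The deposited table held raw read counts per gene. Per the labels and the study's methods, the authors trimmed reads with fastp 0.20.1, aligned them to GRCm38 with HISAT2 2.2.1 and counted them with featureCounts 2.0.1, and made SLIM-seq libraries by a Smart-seq2-based protocol. The annotation and the settings for strand and for reads with several matches are not given in the sources used here, and they decide how reads are divided between a copy and its source. The columns were mapped to samples by title. Entries whose names had become dates (128, 0.0144 to 0.390% of counts) stayed in library totals and out of tests.

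The members and lists were chosen with earlier results of these data known. Counts were tested with edgeR 4.0.16 (TMM, quasi-likelihood F test, filterByExpr) over all genes, with Benjamini-Hochberg adjustment over all genes tested. The SE of a log2 fold change is its size divided by the square root of F. Genes named in the text are the 6 members with the smallest p in each direction of a comparison, and the 3 for the direction in which none was called, with the 12 highest in level and the ranks beside the 200th. Host and opposite genes, and members named only for counts of 5 or fewer or for tags, were added after their values were seen. IP and input libraries with one replicate number came from the same divided batch of cells, and their deviations from group means correlated at 0.0348 to 0.432 over groups. WT and Mettl3cko numbers did not pair (-0.0275 to 0.0496). Among WT inputs, same-numbered SSC, pBCSP and BCSP libraries also deviated together (0.163 to 0.283), and over the other pairs of populations the values ran from -0.371 to 0.182. Copies were found with blastn 2.17.0 among GENCODE vM21 transcripts. DESeq2 1.42.0, other scalings, no filter, other choices of members, the replicate block and leaving out each library were alternatives. The scripts were tested on simulated data. Depth was 16506779 to 44219035 counts a library. No interval for counting error is given, and reads without molecular identifiers are not independent molecules. Some source and neighbouring genes are not reported here.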

Additional observations from a re-analysis of the deposited data

Results flagged for a closer look

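The ratio of IP to input of Gm42576, a TEC within Chic2, differed among the 8 WT populations by the test of the interaction itself (adjusted p = 0.00479). This gene is a member only through its downstream input level. That input is also the denominator of the ratio, so the p is given as a description only. Gm42576 was the 1 member called of 200 (0.5%), beside 0.485% of all genes, in a fit without the pairing of IP and input libraries. With the replicate number as a block for that pairing, more members differed, as given above. Both SSC IP libraries held 0 counts at a low input of 1.32 and 1.65 CPM. BCSP had 3.01 and 3.08 CPM in IP over a low input of 1.04 and 0.714 CPM, and HEC had 9.80 and 9.30 CPM over 4.29 and 7.81 CPM, so the stem and progenitor populations did not share a direction.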

How the results depend on the processing

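Of 148 values recomputed under alternatives other than leaving out a library, 118 stayed within 1.5 times the value reported and 30 moved further. With the 100 highest in place of 200 members, 59 differed among populations. Choosing members on WT IP gave 135 higher and 23 lower in IP, and choosing them on Mettl3cko input gave 17 higher and 4 lower in Mettl3cko. With DESeq2, 10 members differed in IP over input among populations, 21 were higher and 19 lower in Mettl3cko input, 6 had a higher and 48 a lower ratio in Mettl3cko, and 14 were higher in pBCSP. With no filter on low counts the same counts were 14, 18, 17, 1, 34 and 17. At an adjusted p, 14 members were tagged in SSC, 27 in pBCSP, 3 in BCSP and 32 in THY, with the other populations not given. At that threshold 0 were higher or lower in Mettl3cko in any single population. One shared fit of the WT libraries tagged 45 in BCSP. The cause of these moves was not tested. No share of all genes is given for any alternative in this section, so its counts do not compare members with genes.

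With the replicate number as a block, for the pairing of IP and input libraries, 12 members differed in IP over input among populations and 3 had a lower ratio in Mettl3cko. The block moved no other count by over 1.5 times. WT and Mettl3cko libraries share only a number, and the block there gave 14 higher and 15 lower.

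Leaving out 1 library at a time, 210 of 272 values stayed within 1.5 times, and for 11 of 24 results all did. The counts ran from 93 to 116 among populations, 74 to 81 higher and 50 to 58 lower in stem and progenitor cells, 79 to 88 higher and 50 to 61 lower in IP, and 1 to 5 for IP over input among populations. For Mettl3cko they ran from 6 to 14 higher and 6 to 11 lower in input, and 0 to 3 higher and 11 to 41 lower in ratio. Tagged members numbered 17 to 62 in SSC, 29 to 48 in pBCSP, 16 to 43 in BCSP, 37 to 50 in PCP, 41 to 65 in THY, 38 to 63 in BLSP, 49 to 58 in 6C3 and 52 to 61 in HEC. In single populations Mettl3cko gave 12 to 34 higher and 5 to 27 lower in SSC, 3 to 31 and 2 to 30 in pBCSP, and 6 to 11 and 12 to 19 in BCSP. A group left with 1 library was assumed to vary like the others. Members with few counts limit what 2 libraries a group can show.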
